A study of Mus musculus with 27 samples.

Results

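DTR microglia are the cells found in the microglial gate of the mouse brain 2 weeks after the resident microglia were killed with diphtheria toxin (DT), and they were compared with naive microglia. The members are the 2 arrays titled as DTR at 2 weeks and the 5 arrays titled as naive, 7 of the 27 arrays of the series. Each array was an Affymetrix GeneChip Mouse Gene 2.1 ST, which reads whole transcripts, and each sample was a pool of cells sorted from the brains of several C57BL/6 mice. DTR microglia came from *Cx3cr1*CreER/+*R26*DTR/+ mice, in which tamoxifen (TAM) switches on the DT receptor in cells that express *Cx3cr1*. These mice were given TAM, then DT on 3 consecutive days some weeks later, and were sorted 2 weeks after that. Naive microglia came either from untreated mice or from *Cx3cr1*CreER/+ mice given TAM, and the labels do not say which array is which. The study's own description of the arrays names only the second source. No naive mouse carried the DT receptor or received DT, so effects of the toxin, of the receptor allele and of depletion cannot be told apart. The *Cx3cr1* promoter is active beyond microglia, in border macrophages and circulating monocytes among others. Both groups were sorted as CD11b+CX3CR1hi cells. F4/80 was not part of that gate, although the labels describe the DTR cells as F4/80low. Mice entered the study's experiments at an age of 6 to 12 weeks, and no age is given for each group.

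For orientation, 3 further groups of the series were used. They came from *Cx3cr1*CreER/+*R26*DTA/+ mice, which make the toxin's A chain themselves after TAM on 3 consecutive days: F4/80low microglia (CD11b+CX3CR1hiF4/80low) 4 weeks and 12 weeks after TAM, and F4/80hi macrophages (CD11b+CX3CR1hiF4/80hi) 12 weeks after TAM, with 3 arrays each. The comparison with these cells bears on how the state 2 weeks after depletion differs from later ones, but the depletion system differs as well.

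Microglia are the macrophages of the brain parenchyma. They maintain themselves by division, and after depletion the surviving cells divide and refill the tissue, while monocyte-derived macrophages can enter as well. Macrophages answer type I interferon through the receptor subunits IFNAR1 and IFNAR2, which activate transcription factors that bind the interferon-stimulated response element, a DNA motif of paired GAAA blocks, in front of antiviral genes. In ageing, demyelination and neurodegeneration microglia can also adopt the disease-associated state, marked by *Itgax*, *Axl*, *Clec7a*, *Cst7* and *Apoe*.

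Values are log2 signals, so that a difference of 1 is 2-fold. Array medians lay between 5.06 and 5.23, and a value near them is hard to tell from background. Of 32245 transcripts tested, 22761 had 1 gene symbol and stood for 21666 genes. The deposited values were already adjusted for batch, since naive microglia and monocytes differed between the batches by the same amount in every transcript to within 1.33e-04. Both DTR arrays and naive arrays 1 and 2 belong to batch 1, and naive arrays 3 to 5 to batch 2. Some of the naive arrays are technical repeats by the study's own account. The labels do not mark them. Naive arrays 1 and 5 were the closest pair (scaled median absolute deviation of their log2 differences 0.267), followed by 2 and 4 (0.270). The p-values therefore measure the spread between arrays, part of which may be technical. The DTR arrays differed in sex-linked transcripts: *Xist* read 8.11 and 12.20 and the Y-linked *Eif2s3y* 9.67 and 6.18 in arrays 1 and 2, against 12.25, 10.98, 11.44, 11.32 and 12.18 and 5.54, 8.29, 7.35, 8.23 and 4.93 in the 5 naive arrays. *Xist* could not be used as a result for that reason, and a fit with the Y-linked mean as a covariate is among the alternatives. DTR array 1 read higher than array 2 in 15167 of 21666 genes (median gap 0.18), in 35 of 40 interferon-stimulated genes (median gap 0.40) and in 31 of 32 homeostatic microglial genes (median gap 0.29). The upper quartile of the signals was 7.12 in DTR array 1 and 6.87 in array 2.

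Markers of microglia read high in both DTR arrays. In the DTR arrays *P2ry12* read 12.51 and 12.22, *Siglech* 12.49 and 12.21 and *Cx3cr1* 12.75 and 12.46, against 12.43 to 12.75, 12.37 to 12.71 and 12.60 to 12.77 in the naive arrays. DTR array 1 lay within these ranges and array 2 below each of them. Both groups were sorted on CX3CR1, so a high *Cx3cr1* signal is not independent evidence of identity. None of the measured markers of other cells was called, neither the 19 of F4/80hi and border macrophages, the 15 of Ly6Chi monocytes, the 16 of neutrophils, the 13 of T and NK cells, the 8 of B cells and the 7 of dendritic cells, nor the 10, 9, 9 and 10 of neurons, astrocytes, oligodendrocytes and vessels. Several of the F4/80hi macrophage markers were named by the study from the F4/80hi arrays themselves. The mean level of the F4/80hi macrophage markers was 5.98 and 6.04 in the DTR arrays, 5.30 to 5.87 in the naive arrays and 8.88 to 9.29 in F4/80hi macrophages. Both DTR arrays thus lay above all naive arrays on that mean, as did 6 of its 19 genes (7.77% over all genes). The mean of the Ly6Chi monocyte markers was 5.62 and 5.84 in the DTR arrays and 5.14 to 5.51 in the naive arrays. Of its 15 genes 4 lay above all naive arrays in both (7.77% over all genes). The chemokine receptor gene *Cxcr4*, of the first list, read 8.47 and 8.52 in the DTR arrays and 6.40, 6.65, 5.15, 6.90 and 7.02 in the naive arrays (log2 difference 1.97, adjusted p = 0.105). *Fn1* (1.80, adjusted p = 0.257) and *Itgal* (1.23, adjusted p = 0.297), which encode fibronectin and an integrin, had the largest differences of the monocyte list. These 3 genes were called higher when only arrays of batch 1 were fitted, and *Cxcr4* also without the batch term (2.07). *Ly6c2* and *Ccr2*, which define these monocytes, read 5.33 and 5.74 and 5.73 and 5.82 in the DTR arrays and lay within or below the naive ranges of 5.51 to 5.94 and 4.92 to 6.74. The mean of the neutrophil markers was 5.77 and 5.60 in the DTR arrays and 5.55 to 5.66 in the naive arrays. The part of other cells in the differences below was not tested. In bulk samples, more cells of a kind and more RNA per cell cannot be told apart.

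The main comparison asked how the microglia present 2 weeks after depletion differed from naive ones. A gene was called when its change exceeded 2-fold with a Benjamini-Hochberg adjusted p under 0.05 in a limma model of all 27 arrays. On that rule 166 of 21666 genes were higher in DTR microglia (0.766%) and 23 were lower (0.106%), or 204 and 39 transcripts. The rises were led by antiviral genes of the interferon response, by chemokines, and by genes of the disease-associated state. The 15 largest were *Oas1g* (4.74), *Ccl5* (3.87), *Oas2* (3.66), *Siglec1* (3.33), *Axl* (3.30), *H2-Q5* (3.21), *Itgax* (3.16), *Zbp1* (3.07), *Ch25h* (3.06), *Oasl2* (3.02), *Cxcl13* (3.02), *Cst7* (3.00), *Ifitm3* (2.87), *Cd69* (2.85) and *Ifi204* (2.80), in log2 units, and each of these calls held when any of the 7 arrays was left out. The falls were smaller, from -1.90 in *Khdrbs3* downwards in size. Over all genes the median difference was 0.01 with quartiles of -0.15 and 0.17. In 187 of the 189 called genes the DTR arrays did not overlap the naive arrays. Over all genes, both DTR arrays lay above all 5 naive arrays in 1684 genes (7.77%) and below all of them in 1659 (7.66%).

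**Figure D1:**
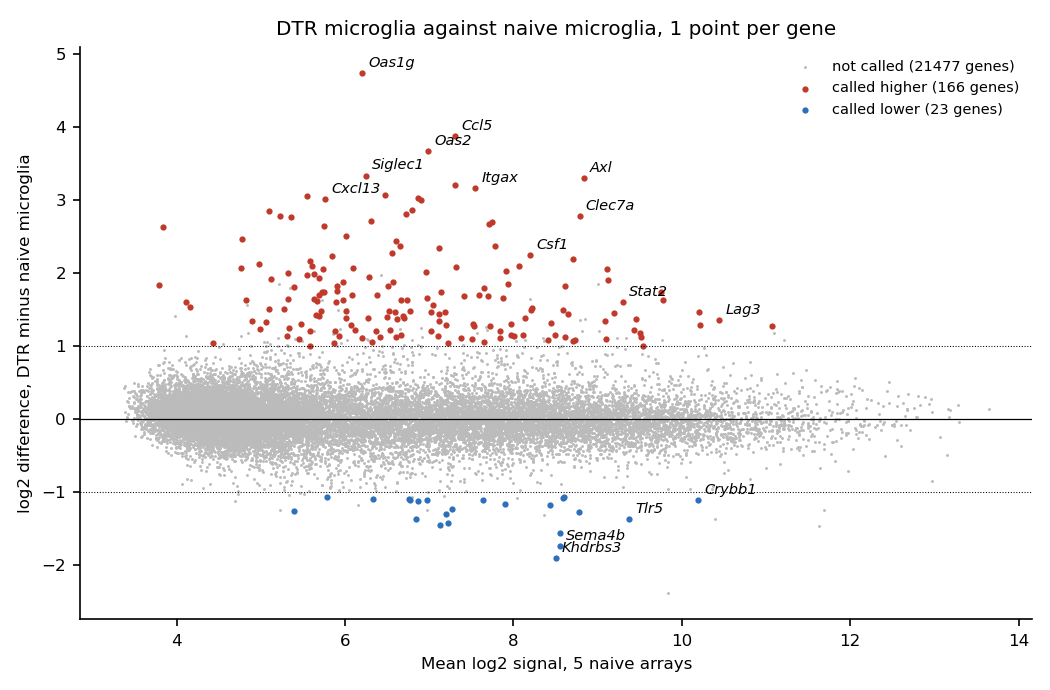
Each point is 1 gene, with its mean log2 signal in the 5 naive arrays on the x axis and the fitted log2 difference of DTR minus naive microglia on the y axis, and dotted lines mark 2-fold. The 166 genes called higher (red) reach 4.74 in *Oas1g*, and the 23 called lower (blue) reach -1.90 in *Khdrbs3*.

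Of the 34 interferon-stimulated genes that were called higher, 25 had a promoter in the RefSeq table (GRCm38.p6, 250 bases before to 50 after the gene's start). The motif GAAA, any 2 bases and GAAA was searched on both strands, where it reads TTTC, any 2 bases and TTTC on the other, and overlapping matches were kept. It occurred in 13 of these 25 promoters (52.0%), in 4 of 6 promoters of listed interferon-stimulated genes that were not called (66.7%), in 10 of 97 of the other genes called higher (10.3%) and in 0 of 16 of the genes called lower. Among all tested genes with a promoter in the table it occurred in 562 of 16746 (3.36%), and in 943 of all 27025 promoters of this length (3.49%). These shares describe letters in a window and were not tested.

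Stretches of 7 of these promoters are printed because their genes carry the interferon pattern, from the largest rise to an enzyme, a signalling subunit and secreted or membrane effectors. They run 5′ to 3′ along the gene's own strand and end before its start. Capitals mark the motif on either strand, and touching matches are merged. The stretches lie at chr5:120887614-120887656, minus strand (*Oas1g*), chr12:26456538-26456597, minus strand (*Rsad2*), chr5:120777700-120777759, minus strand (*Oas3*), chr19:34640760-34640838, plus strand (*Ifit1*), chr10:128270251-128270310, plus strand (*Stat2*), chr4:156200850-156200921, minus strand (*Isg15*) and chr8:71537562-71537627, minus strand (*Bst2*). The first match begins 18 bases before the start of *Oas1g* and 222 bases before that of *Stat2*. *Isg15* holds 3 matches that run into each other, and *Ifit1* holds 2 that stand apart.
Oas1g: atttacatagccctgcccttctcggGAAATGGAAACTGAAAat
Rsad2: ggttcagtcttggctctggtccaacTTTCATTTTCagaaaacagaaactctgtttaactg
Oas3: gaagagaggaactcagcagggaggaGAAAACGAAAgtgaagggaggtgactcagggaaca
Ifit1: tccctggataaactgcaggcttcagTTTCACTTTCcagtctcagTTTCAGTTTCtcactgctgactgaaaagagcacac
Stat2: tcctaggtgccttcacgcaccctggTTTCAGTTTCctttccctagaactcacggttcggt
Isg15: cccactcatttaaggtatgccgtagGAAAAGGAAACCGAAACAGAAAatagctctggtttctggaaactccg
Bst2: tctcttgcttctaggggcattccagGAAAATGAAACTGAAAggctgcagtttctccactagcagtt

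Type I interferon-stimulated genes moved together. Of the 40 measured members of the list, 34 were called higher and 0 lower (0.766% of all genes were called higher). Their median log2 difference was 1.63 against 0.01 over all genes, and 36 lay above all 5 naive arrays in both DTR arrays (7.77% over all genes). The largest rises were in the 2′-5′-oligoadenylate synthetase family, enzymes that sense double-stranded RNA and switch on RNase L. *Oas1g* read 10.75 and 10.61 in the DTR arrays and 5.37, 6.52, 7.50, 6.29 and 5.36 in the naive arrays (26.7-fold, log2 difference 4.74 ± 0.55, adjusted p = 1.21e-05). The lower of both DTR values thus stood well above the highest naive value. The *Oas1* genes are close copies of each other, so this probe set may read more than one of them. *Oas2* read 10.75 and 10.48 against 6.78, 7.13, 7.60, 7.07 and 6.35 (12.7-fold, log2 difference 3.66 ± 0.41, adjusted p = 7.57e-06). *Oas3* (1.92), *Oasl1* (2.76) and *Oasl2* (3.02) rose as well. In most of these genes naive array 3 was the highest naive array, and the groups did not overlap.

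The transcription factors of the pathway were split. *Irf7*, which amplifies interferon production, read 10.33 and 10.09 in the DTR arrays and 7.34, 7.70, 8.59, 7.59 and 7.48 in the naive arrays (6.46-fold, log2 difference 2.69 ± 0.29, adjusted p = 4.74e-06). *Stat2*, a subunit of the complex that binds the response element, read 11.01 and 10.57 against 9.27, 9.11, 9.76, 9.21 and 9.17 (3.04-fold, log2 difference 1.60 ± 0.19, adjusted p = 1.54e-05). Both genes were higher in each DTR array than in any naive array. *Irf9*, the DNA-binding partner of STAT2, read 10.05 and 9.57 against 9.33, 9.35, 9.83, 9.29 and 9.38 and was not called (log2 difference 0.46, 95% interval 0.13 to 0.80, adjusted p = 0.297). Its second DTR value fell inside the naive range. *Irf3*, which acts upstream of interferon induction, was not called either (log2 difference -0.17, 95% interval -0.54 to 0.20, adjusted p = 0.913), and neither were the receptor subunits *Ifnar1* (log2 difference 0.17, 95% interval -0.21 to 0.54, adjusted p = 0.922) and *Ifnar2* (log2 difference -0.08, 95% interval -0.43 to 0.28, adjusted p = 0.975). *Ifnb1*, the interferon-beta gene, read 5.35 and 5.93 in the DTR arrays and 3.96, 4.26, 3.84, 4.72 and 3.98 in the naive arrays (2.89-fold, log2 difference 1.53 ± 0.29, adjusted p = 0.00487). These values lay near or under the array medians, so the level itself was at the edge of detection.

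The effectors rose across their functions. Among sensors of nucleic acid were *Zbp1*, which binds Z-form nucleic acid, with 9.62 and 9.11 against 6.05, 6.55, 7.94, 6.44 and 5.40 (8.38-fold, log2 difference 3.07 ± 0.47, adjusted p = 4.44e-04), and the cytosolic RNA helicases *Ifih1* (1.31), *Ddx58* (1.15) and *Dhx58* (1.65). Direct antiviral effectors included *Ifitm3*, which blocks viral entry, with 9.70 and 9.05 against 5.94, 7.07, 7.43, 7.03 and 6.48 (7.31-fold, log2 difference 2.87 ± 0.34, adjusted p = 1.40e-05), as well as *Rsad2* (2.10), *Mx1* (1.81), *Mx2* (1.48), *Bst2* (1.27), *Ifit1* (1.70) and *Ifit2* (1.98). *Ifit1* read 8.19 and 7.51 in the DTR arrays and 6.04, 6.27, 6.11, 6.19 and 5.78 in the naive arrays. The ubiquitin-like modifier *Isg15* read 8.58 and 8.30 against 7.08, 7.21, 7.33, 7.17 and 7.20 (2.45-fold, log2 difference 1.29 ± 0.27, adjusted p = 0.0145), and its protease *Usp18*, which also damps signalling at the receptor, read 10.52 and 9.84 against 7.07, 7.93, 8.69, 7.82 and 7.02 (6.39-fold, log2 difference 2.68 ± 0.34, adjusted p = 3.44e-05). In each of these genes both DTR arrays lay above all naive arrays. The DNA-sensing PYHIN genes *Ifi204* (2.80), *Ifi207* (2.47), *Ifi209* (2.08), *Ifi213* (2.07) and *Ifi214* (2.63) rose too. They belong to 1 family of related genes, so a probe set may read more than one of them, which was not tested. A single array left out ended the call of *Isg15* (naive array 1 or either DTR array, at 1.16 to 1.43), *Mx2* (naive array 1 or either DTR array, at 1.26 to 1.70), *Ddx58* (DTR array 1, at 0.92), *Ifit1* (DTR array 1, at 1.36) and *Ifi213* (naive array 1, 2, 3 or 5 or either DTR array, at 1.96 to 2.19), with the array left out and the log2 difference then given in brackets. The calls of *Zbp1*, *Usp18*, *Bst2*, *Dhx58* and *Ddx58* were lost when only the 7 DTR and naive arrays were fitted.

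The 6 list members that were not called were *Slfn8* (1.06), *Eif2ak2* (0.85), *Ifit3* (0.65), *Ifit3b* (0.61), *Irf9* (0.46) and *Ifi35* (0.42). *Ifit3*, a neighbour of *Ifit1* in the genome, read 7.71 and 8.64 in the DTR arrays and 7.20, 7.86, 7.50, 7.75 and 7.79 in the naive arrays (log2 difference 0.65, 95% interval -0.03 to 1.32, adjusted p = 0.633), so that DTR array 1 lay inside the naive range and array 2 above it. *Eif2ak2*, the RNA-activated kinase that stops translation, read 7.12 and 7.13 against 6.23, 6.31, 6.56, 5.96 and 6.39 and missed both thresholds (log2 difference 0.85, 95% interval 0.41 to 1.30, adjusted p = 0.0513). Outside the list, antiviral genes named among the 166 included *Helz2* (2.64), *Rnf213* (1.63), *Ddx60* (1.73), *Phf11b* (1.50) and *Trim30b* (1.41). Of these, *Phf11b* (naive array 1 or DTR array 1, at 1.27 to 1.31) and *Trim30b* (naive array 1 or either DTR array, at 1.25 to 1.57) depended on single arrays in the same way. The number of list members called fell to 21 of 40 when only the 7 DTR and naive arrays were fitted, and to 23 without DTR array 1.

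**Figure D2:**
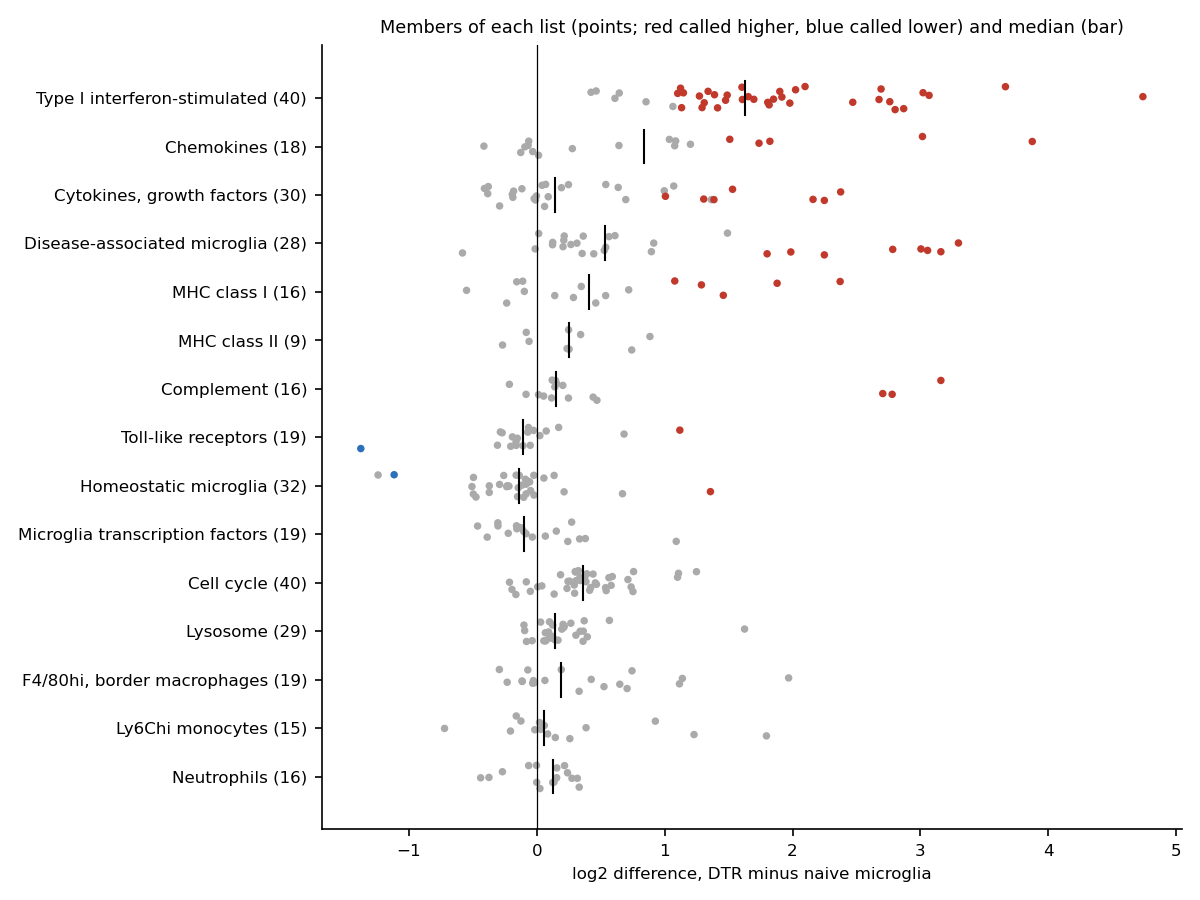
Each point is 1 measured gene of a list (the number of genes stands beside its name), placed by its log2 difference of DTR minus naive microglia on the x axis. Red points were called higher, blue points lower, grey points were not called, and the bar is the list's median. Interferon-stimulated genes lie furthest to the right with a median of 1.63, while homeostatic microglial genes (-0.14) and the neutrophil markers (0.13) lie near 0.

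Genes that interferon-gamma induces more strongly were called in smaller number. Of 15 measured members 4 were called higher (0.766% over all genes) and 0 lower, with a median of 0.51: the GTPases *Iigp1* (2.06) and *Gbp4* (1.63), the chemokine *Cxcl9* (1.51) and *Cd274* (1.21), which encodes the checkpoint ligand PD-L1. *Iigp1* read 7.69 and 7.29 in the DTR arrays against 5.38, 5.48, 5.96, 6.28 and 5.59. *Irf1* (0.19, adjusted p = 0.891), *Socs1* (0.13, adjusted p = 0.973) and *Igtp* (0.24, adjusted p = 0.883) were not called. The difference between this list and the type I list was not tested. Leaving out 1 array ended all 4 calls: *Iigp1* (either DTR array, at 1.86 to 2.26), *Gbp4* (naive array 1 or 2 or either DTR array, at 1.46 to 1.79), *Cxcl9* (naive array 1 or either DTR array, at 1.39 to 1.62) and *Cd274* (naive array 1 or either DTR array, at 1.12 to 1.26).

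In the MHC class I list 5 of 16 measured genes rose (0.766% over all genes) and 0 fell (median 0.40). *Nlrc5*, the activator of class I transcription, read 9.17 and 8.74 in the DTR arrays and 6.54, 6.62, 7.20, 6.34 and 6.54 in the naive arrays (5.18-fold, log2 difference 2.37 ± 0.28, adjusted p = 1.26e-05). The classical class I gene *H2-K1* read 11.65 and 11.51 against 10.16, 10.08, 10.33, 10.46 and 10.02 (2.75-fold, log2 difference 1.46 ± 0.14, adjusted p = 1.71e-06), and *Tap1*, a subunit of the peptide transporter, read 11.51 and 11.08 against 9.94, 10.08, 10.81, 10.25 and 10.01 (2.44-fold, log2 difference 1.29 ± 0.18, adjusted p = 1.38e-04). The 2 DTR arrays lay above all naive arrays in each. *H2-Q4* (1.88), *H2-M3* (1.08) and, outside the list, *H2-Q5* (3.21) rose as well, although the *H2-Q* genes are near copies that share probes. The call of *H2-M3* (naive array 1 or DTR array 1, at 0.79 to 0.95) depended on 1 array, and that of *Tap1* was lost when only the 7 DTR and naive arrays were fitted. A second transcript of *H2-Q4* differed by 0.51 and was not called. *Tap2* (log2 difference 0.29, 95% interval -0.21 to 0.78, adjusted p = 0.856) and the immunoproteasome genes *Psmb8* (0.35, adjusted p = 0.606) and *Psmb9* (0.54, adjusted p = 0.368) were not called. None of 9 measured MHC class II genes was called (median 0.25), and the difference between the classes was not tested. *H2-Aa* read 7.79 and 7.82 against 7.66, 8.07, 5.63, 8.71 and 8.08 (log2 difference -0.06, 95% interval -1.12 to 1.00, adjusted p = 0.995), with naive array 3 far below the others. *Ciita*, the activator of class II transcription, was not called (log2 difference 0.25, 95% interval -0.37 to 0.87, adjusted p = 0.931).

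Some secreted signals were called and others missed the thresholds. Of 18 measured chemokines 5 were called higher (0.766% over all genes) and 0 lower (median 0.84). Both DTR arrays lay above all naive arrays in 9 of the 18 (7.77% over all genes) and below all of them in 0. *Ccl5*, which attracts T cells and monocytes, read 11.26 and 10.88 in the DTR arrays and 6.87, 7.52, 7.34, 7.72 and 7.07 in the naive arrays (14.7-fold, log2 difference 3.87 ± 0.52, adjusted p = 7.84e-05). *Cxcl13*, the B cell attractant, read 9.02 and 8.29 against 5.56, 5.72, 6.02, 5.88 and 5.64 (8.09-fold, log2 difference 3.02 ± 0.37, adjusted p = 2.28e-05). For both genes the naive arrays lay close together and the DTR arrays stood apart. *Cxcl16* (1.74), *Cxcl9* (1.51) and *Ccl12* (1.82) also passed. *Ccl12*, a monocyte attractant of the mouse, passed narrowly: it read 10.49 and 10.24 against 7.78, 9.31, 8.34, 9.45 and 8.18 (adjusted p = 0.0499). Other inflammatory CC chemokines did not pass, with *Ccl2* at 10.28 and 10.16 against 8.86, 9.18, 8.11, 9.79 and 9.11 (log2 difference 1.20, 95% interval 0.22 to 2.19, adjusted p = 0.407), *Ccl3* at 1.08 (adjusted p = 0.452) and *Ccl4* at 1.09 (adjusted p = 0.342). In *Ccl2* both DTR arrays still lay above all naive arrays. Single arrays decided the calls of *Ccl12* (naive array 1, 3 or 5 or either DTR array, at 1.41 to 1.95) and *Cxcl9* (naive array 1 or either DTR array, at 1.39 to 1.62).

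Among 30 measured cytokines, growth factors and related enzymes 7 were called higher (0.766% over all genes) and 0 lower (median 0.14). Both DTR arrays lay above all naive arrays in 12 of the 30, *Tnf* among them (7.77% over all genes), and below all of them in 2. *Il1b*, the precursor of interleukin-1 beta, read 10.23 and 10.40 in the DTR arrays and 8.27, 7.61, 6.92, 7.80 and 8.33 in the naive arrays (5.19-fold, log2 difference 2.38 ± 0.43, adjusted p = 0.00298). *Csf1*, a ligand of the receptor on which microglia depend, read 10.21 and 10.17 against 7.72, 8.16, 8.76, 8.43 and 7.94 (4.75-fold, log2 difference 2.25 ± 0.30, adjusted p = 6.97e-05). The receptor itself, *Csf1r*, read 13.33 and 13.20 against 13.28, 13.34, 13.32, 13.28 and 13.27 (log2 difference -0.05, 95% interval -0.29 to 0.19, adjusted p = 0.975). The interval for the receptor was narrow and included 0. *Ptgs2*, the inducible cyclooxygenase, read 7.36 and 8.18 against 5.59, 5.64, 5.23, 5.57 and 5.91 (4.47-fold, log2 difference 2.16 ± 0.36, adjusted p = 0.00121). *Ifnb1* (1.53), *Osm* (1.39), *Il1rn* (1.31) and *Tnfsf13b* (1.01) completed the called members. Of the 7 calls, those of *Il1b* (DTR array 2, at 2.29), *Ptgs2* (DTR array 2, at 1.75), *Ifnb1* (DTR array 2, at 1.24), *Osm* (naive array 1 or 2 or either DTR array, at 1.31 to 1.46), *Il1rn* (DTR array 2, at 1.21) and *Tnfsf13b* (naive array 1 or 5 or DTR array 1, at 0.82 to 0.98) were lost when 1 array was left out, and that of *Csf1* was not. *Tnf* read 10.08 and 10.05 against 8.29, 9.11, 8.60, 9.49 and 8.75 and was not called (log2 difference 1.36, 95% interval 0.48 to 2.25, adjusted p = 0.19), *Il6* read 6.61 and 6.13 against 6.31, 6.79, 5.39, 7.12 and 6.77 (log2 difference -0.18, 95% interval -1.08 to 0.72, adjusted p = 0.975), and *Tgfb1* differed by -0.41 (adjusted p = 0.5).

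Genes of signalling early after a stimulus gave few calls. In the NF-kB list 1 of 16 was called (0.766% over all genes were called higher, median 0.61), *Cd83* (1.70). Both DTR arrays lay above all naive arrays in 10 of the 16 (7.77% over all genes) and below all of them in 0. On the adjusted p alone 3 of the 16 passed. The inhibitor *Nfkbia* passed the adjusted p but not 2-fold (log2 difference 0.77 ± 0.18, adjusted p = 0.0372), and *Nfkbid*, which is not on the list, was called (log2 difference 1.36 ± 0.29, adjusted p = 0.0169). Of 27 immediate-early and stress genes 3 were called higher (0.766% over all genes), the nuclear receptors *Nr4a1* (2.19) and *Nr4a3* (1.48) and the phosphatase gene *Dusp2* (1.38). Of the 27, 8 lay above all naive arrays in both DTR arrays (7.77% over all genes) and 0 below (7.66% over all genes). *Nr4a1* read 10.46 and 11.13 against 8.91, 8.30, 8.51, 8.58 and 9.24. *Jun* (log2 difference -0.08, 95% interval -0.80 to 0.63, adjusted p = 0.987) and *Egr1* (log2 difference -0.12, 95% interval -0.97 to 0.73, adjusted p = 0.984) were not called. Single arrays decided the calls of *Cd83* (either DTR array, at 1.63 to 1.77), *Nfkbid* (naive array 2 or either DTR array, at 1.29 to 1.40), *Nr4a1* (naive array 2 or either DTR array, at 1.85 to 2.52) and *Dusp2* (DTR array 2, at 1.19).

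Part of the disease-associated programme rose strongly and the rest was not called. Of 28 measured members 8 were called higher (0.766% over all genes) and 0 lower, the median was 0.53, and 19 lay above all naive arrays in both DTR arrays (7.77% over all genes). *Axl*, a receptor tyrosine kinase for the clearance of dying cells that is itself interferon-inducible, read 12.09 and 11.96 in the DTR arrays and 8.41, 9.04, 9.24, 8.94 and 8.55 in the naive arrays (9.83-fold, log2 difference 3.30 ± 0.24, adjusted p = 2.29e-08). *Itgax*, which encodes CD11c, read 10.71 and 10.36 against 7.46, 7.29, 8.01, 7.48 and 7.48 (8.94-fold, log2 difference 3.16 ± 0.32, adjusted p = 2.25e-06). *Cst7*, an inhibitor of cathepsins, read 9.84 and 9.70 against 7.06, 6.47, 7.25, 7.05 and 6.68 (8.02-fold, log2 difference 3.00 ± 0.29, adjusted p = 1.71e-06). *Clec7a*, the beta-glucan receptor dectin-1, read 11.43 and 11.57 against 8.87, 8.57, 8.19, 9.25 and 9.05 (6.88-fold, log2 difference 2.78 ± 0.25, adjusted p = 8.00e-07). In each of these genes the DTR arrays lay close together and far above the naive arrays.

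The remaining called members belong to lipid handling and growth. *Ch25h*, which makes the antiviral oxysterol 25-hydroxycholesterol, read 8.53 and 8.33 in the DTR arrays against 5.33, 5.42, 5.07, 5.92 and 5.97 (8.32-fold, log2 difference 3.06 ± 0.34, adjusted p = 8.82e-06). *Apoe*, the main lipid carrier of the brain, read 9.18 and 9.44 against 7.34, 7.68, 7.89, 7.91 and 7.42 (3.48-fold, log2 difference 1.80 ± 0.30, adjusted p = 0.00118), and the fatty acid binding protein gene *Fabp5* read 7.59 and 7.62 against 5.43, 5.81, 4.64, 6.43 and 5.85 (3.96-fold, log2 difference 1.99 ± 0.35, adjusted p = 0.00209). *Fabp5* has close processed copies that probes may share. Its other transcripts on the array differed by 1.01, and its call was lost when only CNS arrays or only the 7 DTR and naive arrays were fitted. A second transcript of *Ch25h* was not called (0.47, adjusted p = 0.765). *Csf1* was the eighth. *Trem2*, the receptor that drives this state, read 12.31 and 11.93 against 12.17, 12.21, 12.41, 12.10 and 12.24 (log2 difference -0.07, 95% interval -0.54 to 0.40, adjusted p = 0.982), and its adaptor *Tyrobp* differed by 0.27 (adjusted p = 0.706). The lysosomal and late markers *Cd9* (0.35), *Ctsb* (0.21), *Ctsd* (0.12), *Gpnmb* (0.53), *Lgals3* (-0.01) and *Lpl* (0.90) were not called either. *Gpnmb* read 6.01 and 5.93 against 5.42, 5.47, 4.86, 5.80 and 5.69 and *Lgals3* read 5.22 and 5.0 against 5.07, 5.18, 5.02, 4.93 and 5.12, close to the array medians. None of 29 measured lysosomal genes was called (median 0.14).

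Surface receptors outside these lists added single genes. *Siglec1*, the sialic acid receptor of interferon-activated macrophages, read 9.53 and 9.33 in the DTR arrays and 5.88, 6.31, 7.12, 6.21 and 5.72 in the naive arrays (10.1-fold, log2 difference 3.33 ± 0.41, adjusted p = 2.15e-05). It was 1 of 4 called higher among 28 Siglec, CD300 and related receptors (0.766% over all genes, median 0.05), with *Clec7a*, the inhibitory receptor *Lilrb4a* (2.06) and *Siglecf* (1.44). *Cd69*, an early activation antigen that rises with interferon, read 8.09 and 8.03 against 4.92, 5.49, 5.08, 4.90 and 5.09 (7.23-fold, log2 difference 2.85 ± 0.26, adjusted p = 8.00e-07). The DTR arrays nearly coincided, and every naive array lay far below them. *Hcar2*, a receptor for hydroxybutyrate and niacin, read 8.82 and 9.35 against 6.36, 7.11, 6.99, 7.49 and 7.61 (5.09-fold, log2 difference 2.35 ± 0.32, adjusted p = 7.60e-05), and *Pdcd1*, which encodes PD-1, read 8.01 and 7.85 against 5.94, 6.52, 6.95, 6.57 and 5.90 (3.26-fold, log2 difference 1.70 ± 0.34, adjusted p = 0.00845). Of 26 phagocytic and scavenger receptors 2 were called higher (0.766% over all genes), *Axl* and *Olr1* (1.25). Of 26 genes of cholesterol synthesis and efflux 3 were called higher (0.766% over all genes), namely *Ch25h*, *Fabp5* and *Apoe*. Leaving out 1 array ended the call of *Lilrb4a* (naive array 1 or 2 or either DTR array, at 1.97 to 2.15), *Siglecf* (DTR array 1, at 1.21), *Pdcd1* (naive array 1 or either DTR array, at 1.55 to 1.78) and *Olr1* (naive array 2 or DTR array 2, at 0.95 to 1.12).

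Complement and pattern recognition gave large changes in few genes. Of 16 complement genes and receptors 3 were called higher (0.766% over all genes) and 0 lower (median 0.15). *C4b*, a shared component of the classical and lectin pathways, read 8.75 and 8.85 in the DTR arrays and 6.22, 5.97, 6.99, 6.45 and 5.95 in the naive arrays (6.52-fold, log2 difference 2.71 ± 0.33, adjusted p = 2.30e-05). *Cfb*, the protease of the alternative pathway, read 8.22 and 7.61 against 5.23, 5.04, 5.58, 4.72 and 5.53 (6.86-fold, log2 difference 2.78 ± 0.28, adjusted p = 2.40e-06). The third was *Itgax*, a subunit of a complement receptor. *C1qa*, the first component that microglia express at high level, read 12.97 and 12.84 against 12.82, 12.68, 12.76, 12.80 and 12.73 (log2 difference 0.16, 95% interval -0.37 to 0.68, adjusted p = 0.958). Of 8 Fc receptor genes 1 rose, *Fcgr4* (log2 difference 1.14 ± 0.26, adjusted p = 0.0278). Of 19 Toll-like receptor genes and adaptors 1 rose and 1 fell (0.106% of all genes were called lower): *Tlr2*, for bacterial lipoproteins, read 10.55 and 10.55 against 9.37, 9.49, 9.64, 9.58 and 9.53 (2.17-fold, log2 difference 1.12 ± 0.19, adjusted p = 0.00192), and *Tlr5*, the flagellin receptor, read 8.14 and 7.62 against 9.37, 9.14, 9.64, 9.36 and 9.33 (2.60-fold lower, log2 difference -1.38 ± 0.27, adjusted p = 0.00724). Both receptors separated the groups without overlap, in opposite directions. The calls of *Fcgr4* (naive array 1 or 2 or either DTR array, at 1.05 to 1.24) and *Tlr5* (DTR array 2, at -1.12) depended on single arrays.

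**Figure D3:**
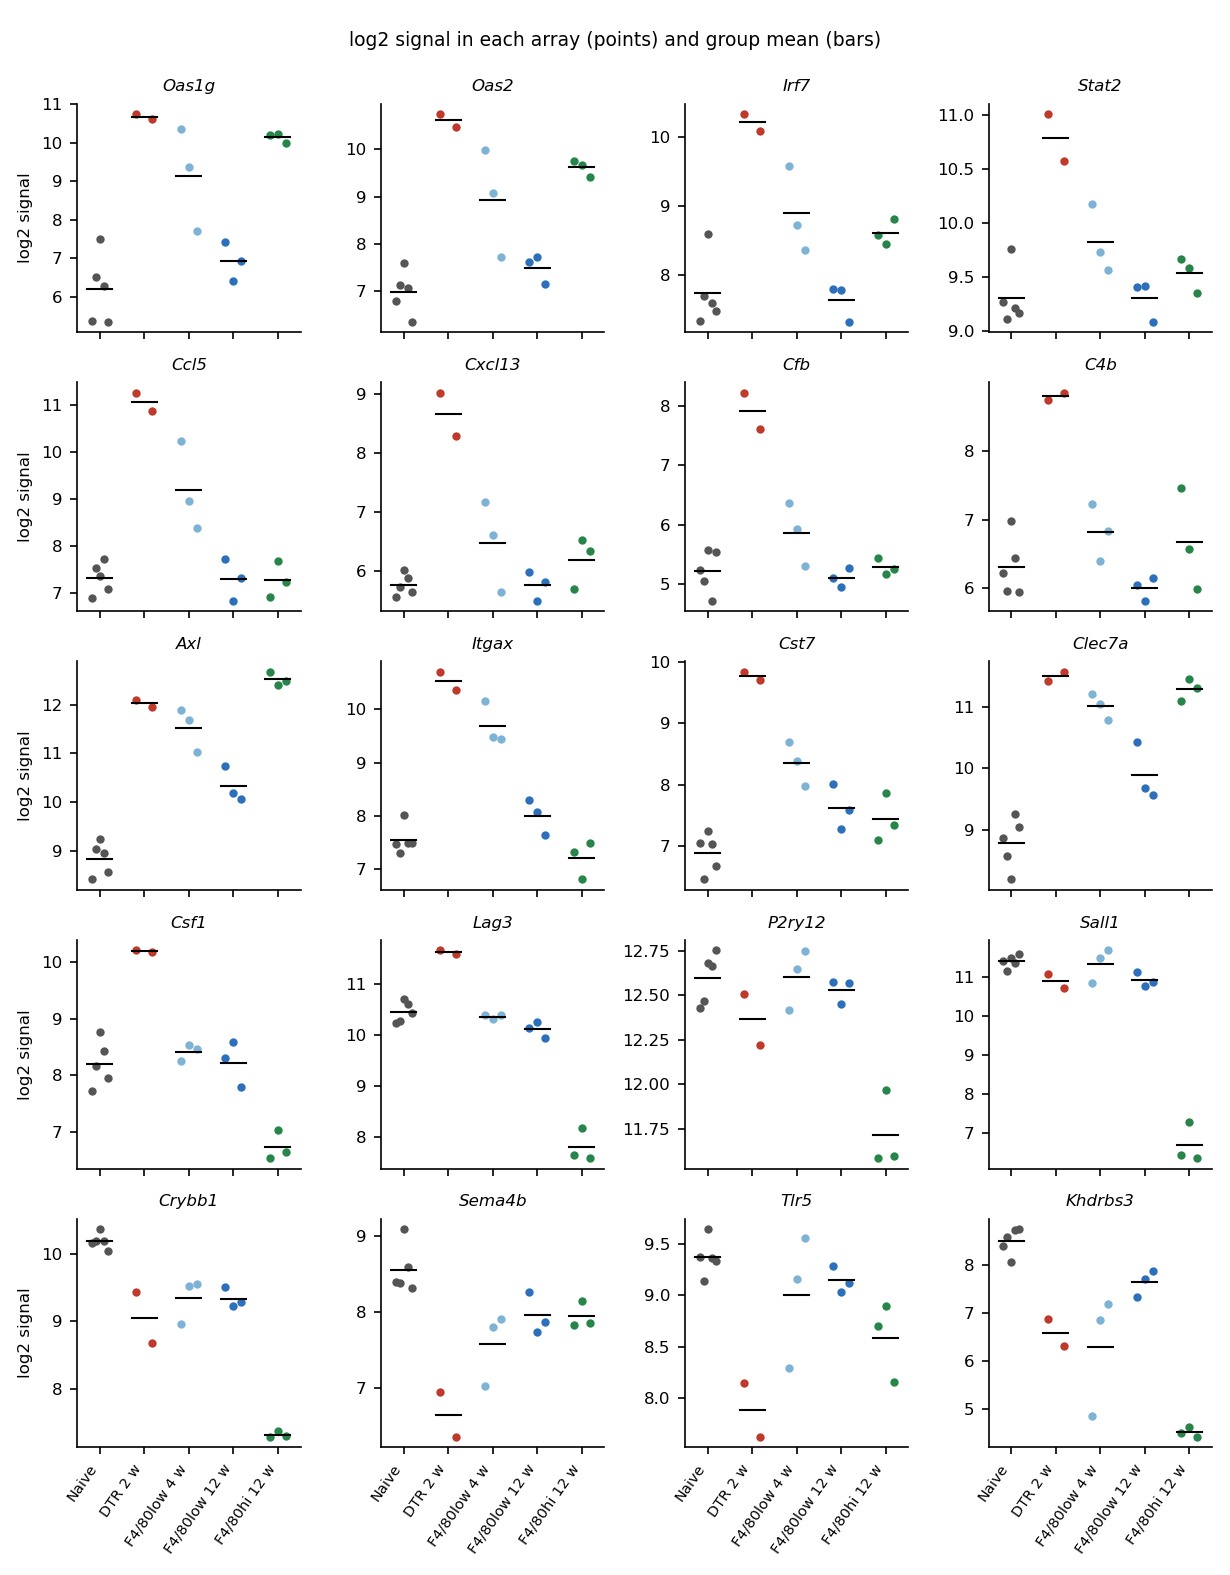
Each panel shows 1 gene, with log2 signal on the y axis, 1 point per array and a bar at the group mean, for naive microglia (5 arrays), DTR microglia at 2 weeks (2), F4/80low microglia at 4 and 12 weeks (3 each) and F4/80hi macrophages at 12 weeks (3). The y axes differ between panels and do not start at 0. *Csf1*, *Cfb*, *C4b* and *Lag3* are higher in both DTR arrays than in every other array shown, and *Sema4b* and *Tlr5* are lower than in every other array.

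The identity genes of microglia were mostly not called. Of 32 measured homeostatic genes 1 rose (0.766% over all genes) and 1 fell (0.106% over all genes), with a median of -0.14 against 0.01 over all genes. *P2ry12*, the ADP receptor that marks resting microglia, read 12.51 and 12.22 in the DTR arrays and 12.43, 12.47, 12.68, 12.67 and 12.75 in the naive arrays (log2 difference -0.08, 95% interval -0.44 to 0.27, adjusted p = 0.973). *Tmem119* read 10.55 and 10.23 against 10.86, 10.66, 10.80, 10.42 and 10.53 (log2 difference -0.37, 95% interval -0.92 to 0.17, adjusted p = 0.801). *Siglech* (log2 difference -0.09, 95% interval -0.51 to 0.33, adjusted p = 0.975), *Olfml3* (log2 difference 0.21, 95% interval -0.26 to 0.68, adjusted p = 0.916) and *Cx3cr1* (log2 difference -0.15, 95% interval -0.51 to 0.21, adjusted p = 0.926) likewise had intervals that included 0 and excluded a 2-fold change. CX3CR1 was part of the gate of both groups. The intervals of *Fcrls* (log2 difference -0.48, 95% interval -0.92 to -0.03, adjusted p = 0.532) and the ADP receptor *P2ry13* (log2 difference -0.51, 95% interval -0.93 to -0.08, adjusted p = 0.429) lay below 0 before correction. *Tgfbr1*, a receptor for the cytokine on which this identity depends, was not called (log2 difference -0.10, 95% interval -0.41 to 0.21, adjusted p = 0.952), nor was any of 24 genes of TGF-β signalling.

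*Lag3*, an inhibitory receptor, rose: it read 11.65 and 11.57 in the DTR arrays and 10.24, 10.26, 10.70, 10.60 and 10.43 in the naive arrays (2.56-fold, log2 difference 1.36 ± 0.19, adjusted p = 1.47e-04). *Crybb1*, a crystallin gene, fell: it read 9.44 and 8.68 against 10.16, 10.18, 10.36, 10.19 and 10.05 (2.17-fold lower, log2 difference -1.12 ± 0.19, adjusted p = 0.00147). The naive arrays of *Crybb1* lay within a narrow band and both DTR arrays below it. *Upk1b* read 10.75 and 9.97 against 11.76, 11.44, 11.56, 11.78 and 11.93, below all naive arrays in both, and was not called (log2 difference -1.24, 95% interval -1.96 to -0.52, adjusted p = 0.108). The list held 8 genes below all naive arrays in both DTR arrays (7.66% over all genes) and 1 above. The call of *Crybb1* (DTR array 2, at -0.74) depended on 1 array. Among 19 measured transcription factors of microglia 0 were called higher or lower (median -0.10). *Sall1*, which maintains microglial identity, read 11.07 and 10.74 against 11.41, 11.17, 11.50, 11.36 and 11.60 (log2 difference -0.39, 95% interval -1.01 to 0.24, adjusted p = 0.831). Its DTR values were the lowest of both groups, and its interval reached past 2-fold lower. *Sall3* (log2 difference 0.15, 95% interval -0.56 to 0.86, adjusted p = 0.975), *Mef2a* (log2 difference -0.03, 95% interval -0.34 to 0.27, adjusted p = 0.988), *Spi1* (log2 difference -0.16, 95% interval -0.51 to 0.20, adjusted p = 0.92) and *Irf8* (log2 difference 0.24, 95% interval -0.44 to 0.93, adjusted p = 0.944) were not called.

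Division genes gave no call on the list. Of 40 measured cell cycle genes 0 were called in either direction (median 0.36). In both DTR arrays 11 lay above all naive arrays (7.77% over all genes) and 0 below, and 35 of the 40 differences were positive. *Mki67*, the marker of cycling cells, read 7.79 and 8.06 in the DTR arrays and 6.76, 6.59, 7.86, 6.15 and 7.16 in the naive arrays (log2 difference 1.25, 95% interval 0.48 to 2.02, adjusted p = 0.15). Naive array 3 overlapped the DTR arrays. *Aurkb* (1.10, adjusted p = 0.084) and *Cdkn1a* (1.11, adjusted p = 0.0623), an inhibitor of the cycle, were the next largest, and *Top2a* read 5.78 and 5.55 against 5.23, 5.58, 5.59, 5.43 and 5.75 (log2 difference 0.26, 95% interval -0.33 to 0.84, adjusted p = 0.922). Many of these genes were near background: 24 had naive means under 6. The mean level of the list was 6.50 and 6.42 in the DTR arrays and 6.11, 6.04, 6.53, 5.99 and 6.09 in the naive arrays. Without naive array 3, 3 of the 40 were called higher, *Aurkb*, *Cdkn1a* and *Mki67*. Outside the list, genes that serve DNA replication and the nuclear envelope rose: *Tk1*, thymidine kinase, read 8.70 and 8.21 against 6.68, 6.49, 7.81, 5.90 and 5.95 (3.67-fold, log2 difference 1.88 ± 0.34, adjusted p = 0.00308), *Lmnb1*, lamin B1, read 7.57 and 7.76 against 5.84, 5.85, 5.98, 5.78 and 6.05 (3.53-fold, log2 difference 1.82 ± 0.25, adjusted p = 9.05e-05), and *Dna2*, a replication helicase, read 7.57 and 7.24 against 5.75, 5.59, 6.06, 5.36 and 5.89 (3.32-fold, log2 difference 1.73 ± 0.22, adjusted p = 2.82e-05). These 3 were picked from the called genes after their values were seen. The call of *Tk1* (DTR array 1, at 1.63) depended on 1 array.

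Metabolic and structural lists gave 0 calls in either direction. The medians were 0.25 over 15 genes of glycolysis, -0.01 over 24 of oxidative phosphorylation, 0.04 over 24 of motility and the cytoskeleton, and 0.17 over 14 of iron and heme.

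**Figure D4:**
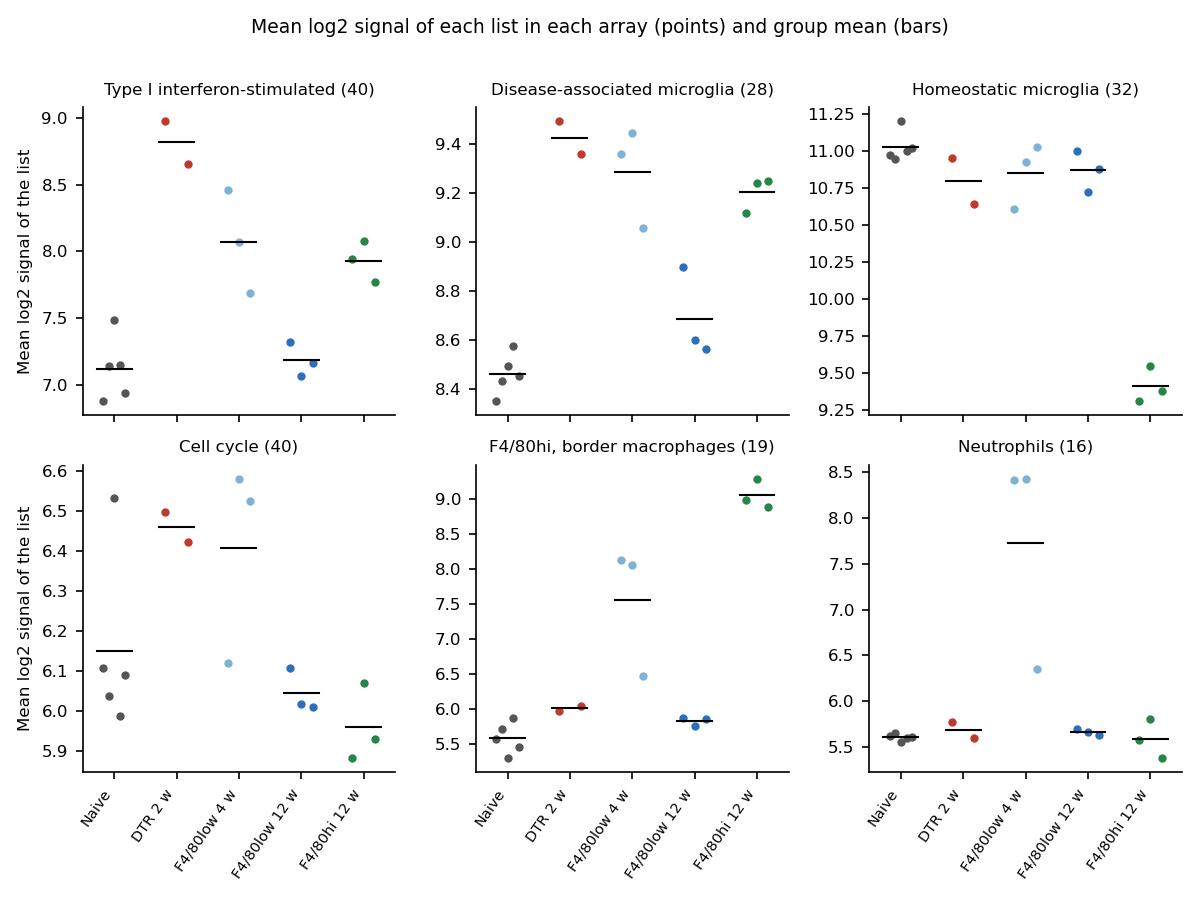
Each panel shows the mean log2 signal over the measured genes of 1 list on the y axis, 1 point per array and a bar at the group mean, for the same 5 groups. For interferon-stimulated genes the DTR arrays (8.98 and 8.66) lie above all naive arrays (6.88 to 7.49), whereas the homeostatic mean of DTR array 1 (10.95) lies within the naive range (10.94 to 11.20) and that of array 2 (10.64) below it.

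The genes that fell were fewer, and of the pathway lists only the homeostatic and Toll-like receptor lists held one each. *Khdrbs3*, an RNA-binding regulator of splicing, read 6.88 and 6.31 in the DTR arrays and 8.40, 8.59, 8.06, 8.72 and 8.75 in the naive arrays (3.74-fold lower, log2 difference -1.90 ± 0.42, adjusted p = 0.0195). *Sema4b*, a semaphorin, read 6.94 and 6.35 against 8.39, 8.38, 9.09, 8.59 and 8.31 (3.34-fold lower, log2 difference -1.74 ± 0.30, adjusted p = 0.00175). *Slc39a12*, a zinc transporter, read 7.28 and 6.79 against 8.37, 8.82, 8.23, 8.76 and 8.56 (2.95-fold lower, log2 difference -1.56 ± 0.34, adjusted p = 0.0177). In all of these both DTR arrays lay below every naive array, and DTR array 2 was the lower one. Genes of cyclic nucleotide signalling were among the 15 largest falls: the adenylate cyclases *Adcy8* (6.09 and 5.35 against 7.35, 6.95, 6.80, 7.39 and 7.60, log2 difference -1.43 ± 0.30, adjusted p = 0.014) and *Adcy6* (6.13 and 6.12 against 7.56, 7.15, 7.35, 7.00 and 7.32, log2 difference -1.23 ± 0.27, adjusted p = 0.0202), and the phosphodiesterase *Pde2a* (5.42 and 5.28 against 6.44, 6.99, 6.79, 7.08 and 6.89, log2 difference -1.37 ± 0.27, adjusted p = 0.00879). These were grouped after their values were seen. The others of the 15 were *Lypd6* (-1.46), *Tlr5* (-1.38), *Col6a3* (-1.31), *Actn1* (-1.27), *Gm7052* (-1.27), *Chst8* (-1.17), *Fgf11* (-1.16), *Hlf* (-1.12) and *Crybb1* (-1.12). *Hlf* is a transcription factor, *Actn1* an actin crosslinker and *Chst8* a sulfotransferase. *Fgf11* and *Gm7052* passed narrowly (adjusted p = 0.0482 and 0.0499).

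The count of falls depended on the arrays in the fit more than the count of rises. Of 39 transcripts called lower, the count became 24 without DTR array 1, 11 without DTR array 2 and 3 when only the CNS arrays were fitted, while the 204 transcripts called higher became 145, 173 and 117. All 15 named falls lost their call without at least 1 array: *Khdrbs3* (naive array 1 or 2 or either DTR array, at -2.18 to -1.62), *Sema4b* (DTR array 2, at -1.44), *Slc39a12* (naive array 2 or either DTR array, at -1.80 to -1.32), *Lypd6* (DTR array 1, at -1.31), *Adcy8* (naive array 1 or DTR array 2, at -1.32 to -1.06), *Tlr5* (DTR array 2, at -1.12), *Pde2a* (naive array 2 or either DTR array, at -1.44 to -1.22) and *Col6a3* (DTR array 2, at -1.19), and *Actn1* (naive array 1 or DTR array 2, at -1.07 to -1.04), *Gm7052* (naive array 1, 2, 3 or 4 or either DTR array, at -1.55 to -0.98), *Adcy6* (naive array 1 or either DTR array, at -1.24 to -1.12), *Chst8* (naive array 1, 2, 3 or 4 or either DTR array, at -1.41 to -0.94), *Fgf11* (naive array 1, 2, 3, 4 or 5 or DTR array 2, at -1.29 to -0.62), *Hlf* (naive array 1 or either DTR array, at -1.26 to -0.98) and *Crybb1* (DTR array 2, at -0.74).

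The study listed the genes most raised or lowered in F4/80hi macrophages against both naive microglia and F4/80low microglia at 12 weeks, and these lists were looked up in the DTR comparison. The same naive arrays thus chose the lists and serve as the comparator here, so the lists are not independent evidence. Of 47 measured genes of the first list 12 rose (0.766% over all genes) and 0 fell in DTR against naive microglia (median 0.43). Besides *Oas1g*, *Siglec1*, *Axl*, *Ifi207*, *Lilrb4a* and *Apoe* they were *Myo5a* (2.27), *Ms4a4c* (2.12), *Cyp4f18* (2.01), *Ptger4* (1.95), *Vcam1* (1.94) and *Gpr65* (1.68). *Vcam1*, an adhesion molecule, read 7.59 and 7.63 in the DTR arrays and 5.48, 5.86, 5.23, 6.08 and 5.78 in the naive arrays. Both DTR arrays lay above all naive arrays in 25 of the 47 genes (7.77% over all genes) and below all of them in 1. The F4/80hi markers *Clec12a*, *Ms4a7* and *Mrc1* were not called: *Clec12a* read 5.45 and 5.87 against 4.84, 5.63, 4.11, 5.96 and 5.76 (log2 difference 0.43, 95% interval -0.75 to 1.60, adjusted p = 0.942), *Ms4a7* read 6.08 and 6.88 against 5.04, 5.68, 4.63, 5.67 and 5.0 (log2 difference 1.12, 95% interval 0.04 to 2.19, adjusted p = 0.556) and *Mrc1* read 5.60 and 5.63 against 6.03, 5.78, 5.96, 6.36 and 5.99 (log2 difference -0.29, 95% interval -0.89 to 0.31, adjusted p = 0.901). In *Ms4a7* both DTR arrays lay above all naive arrays. Of 49 measured genes of the second list 1 rose (0.766% over all genes), *Lag3*, and 4 fell (0.106% over all genes): *Khdrbs3* (-1.90), *Chst8* (-1.17), *Crybb1* (-1.12) and *Mymk* (-1.07). Both DTR arrays lay below all naive arrays in 21 of the 49 (7.66% over all genes) and above all of them in 2. Besides the falls already given, *Ptger4* (either DTR array, at 1.90 to 1.99), *Gpr65* (naive array 1 or either DTR array, at 1.44 to 1.70), *Lilrb4a* (naive array 1 or 2 or either DTR array, at 1.97 to 2.15) and *Mymk* (naive array 1 or 2 or either DTR array, at -1.24 to -0.90) lost their call with 1 array left out.

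Against F4/80low microglia 12 weeks after TAM, measured in the same batch, 119 genes were higher in DTR microglia (0.549%) and 5 were lower (0.0231%). Interferon-stimulated genes again made up many of the rises, with 33 of 40 measured members higher and 0 lower. *Oas1g* read 7.44, 6.42 and 6.93 in the 12-week arrays (13.5-fold, log2 difference 3.75 ± 0.54, adjusted p = 2.98e-04), *Ccl5* 7.72, 6.83 and 7.31 (13.8-fold, log2 difference 3.78 ± 0.52, adjusted p = 1.50e-04) and *Siglec1* 6.49, 5.80 and 6.28 (9.44-fold, log2 difference 3.24 ± 0.40, adjusted p = 6.09e-05). All of these lay below both DTR arrays by a wide margin. Of the disease-associated list 7 of 28 were higher, among them *Itgax* (2.54), *Cst7* (2.14), *Csf1* (1.97), *Axl* (1.70) and *Clec7a* (1.61). *Apoe* was not (log2 difference 1.01 ± 0.30, adjusted p = 0.2). *Cfb* (2.81), *C4b* (2.79), *Cxcl13* (2.89) and *Lag3* (1.50) were higher and *Sema4b* (-1.30) and *Tlr5* (-1.26) lower. Of the 40 cell cycle genes 1 was higher, *Mki67*, which read 6.80, 5.74 and 6.50 at 12 weeks (log2 difference 1.58 ± 0.37, adjusted p = 0.0482). *Hcar2* and *Pdcd1* were not called, with 9.82, 9.13 and 8.66 and 8.30, 7.45 and 7.81 in the 12-week arrays (log2 difference -0.12 ± 0.31, adjusted p = 0.998 and log2 difference 0.07 ± 0.34, adjusted p = 1). Without DTR array 1 the count of transcripts higher fell from 142 to 96.

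Against F4/80low microglia 4 weeks after TAM, 28 genes were higher in DTR microglia (0.129%) and 18 were lower (0.0831%). The 2 groups lie in different batches, so this contrast rests on the batch term, and the 4-week arrays differed among themselves. Their mean level of neutrophil markers was 8.41, 8.43 and 6.35 and of Ly6Chi monocyte markers 7.50, 7.88 and 5.85, against 5.77 and 5.60 for neutrophil markers in the DTR arrays. In the 4-week arrays the mean of the F4/80hi macrophage markers was 8.13, 8.06 and 6.47, against 5.98 and 6.04 in the DTR arrays. The part of other cells in this contrast was not tested. Of the 40 interferon-stimulated genes 3 were higher in DTR microglia, *Irf7* (1.69), *Xaf1* (1.35) and *Stat2* (1.16), and 0 lower. *Oas1g* read 10.36, 9.38 and 7.70 in the 4-week arrays, with array 1 close to the DTR level and array 3 close to the highest naive array, and did not pass (log2 difference 1.97 ± 0.67, adjusted p = 0.27). *Csf1* read 8.24, 8.53 and 8.46 (4.64-fold, log2 difference 2.21 ± 0.36, adjusted p = 0.00974), *C4b* 7.23, 6.40 and 6.83 (5.07-fold, log2 difference 2.34 ± 0.40, adjusted p = 0.0127) and *Cfb* 6.37, 5.92 and 5.30 (4.57-fold, log2 difference 2.19 ± 0.34, adjusted p = 0.00539). These 3 genes, with *Cxcl13* (2.39), *H2-Q4* (2.04), *Lag3* (1.58) and *Cd69* (1.92), were higher in DTR microglia, and no 4-week array reached a DTR value in any of the 3. Neutrophil genes such as *Ngp* (-4.94) and *Camp* (-4.32) and the macrophage genes *Ms4a7* (-3.60), *Pf4* (-3.24) and *Mrc1* (-1.67) were lower. The count of transcripts lower was 22, and 121 without 4-week array 3. Both counts were 0 when only CNS arrays were fitted.

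The 3 comparisons with naive microglia share the naive arrays, so their values are only set side by side. Over the 166 genes called higher in DTR microglia the median difference from naive microglia was 1.60 at 2 weeks after DT, 0.89 in F4/80low microglia at 4 weeks and 0.24 at 12 weeks after TAM. Over the 23 genes called lower it was -1.17, -1.21 and -0.52. The 2-week values are those that chose the genes. The 4-week arrays also read higher in F4/80hi macrophage markers, with means of 8.13, 8.06 and 6.47 against 5.30 to 5.87 in the naive arrays. Of those 19 markers 12 were called higher in F4/80low microglia at 4 weeks than in naive microglia, against 203 of 21666 over all genes. The part of other cells in the 4-week values was not tested. For *Axl* the differences were 3.30, 2.61 and 1.60, for *Oas1g* 4.74, 2.77 and 0.99, for *Csf1* 2.25, 0.04 and 0.28, and for *Khdrbs3* -1.90, -2.21 and -0.85.

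Against F4/80hi macrophages 12 weeks after TAM, of the same batch, 450 genes were higher in DTR microglia (2.08%) and 272 were lower (1.26%). Of the homeostatic list 16 of 32 were higher and 0 lower, and of the F4/80hi markers 16 of 19 were lower and 0 higher. The study named several members of both lists, and *Sall1* and *Sall3*, from these same F4/80hi arrays. The direction of such genes in this contrast was thus largely fixed beforehand and is not independent evidence. *Sall1* read 6.45, 7.29 and 6.36 in the F4/80hi arrays against 11.07 and 10.74 in the DTR arrays (18.4-fold, log2 difference 4.20 ± 0.30, adjusted p = 5.04e-09), and *Sall3* differed by 4.30. *Clec12a* read 10.57, 11.46 and 11.01 in the F4/80hi arrays (41.0-fold lower in DTR microglia, log2 difference -5.36 ± 0.56, adjusted p = 6.74e-07), and *Ms4a7* (-5.67), *Mrc1* (-3.48) and *Apoe* (-2.03) were lower too. In *Sall1* and *Clec12a* the DTR and F4/80hi arrays did not overlap. In *Ms4a7* and *Apoe* the DTR arrays, though lower than F4/80hi macrophages, lay above all naive arrays. Of 40 interferon-stimulated genes 18 were higher in DTR microglia and 0 lower, but *Oas1g* was not among them, with 10.21, 10.23 and 10.00 in the F4/80hi arrays (log2 difference 0.54 ± 0.54, adjusted p = 0.775). *Axl* read 12.68, 12.39 and 12.49 and was not called (log2 difference -0.50 ± 0.24, adjusted p = 0.347). *Ccl5* (3.80), *Csf1* (3.45), *Itgax* (3.33), *Lag3* (3.80) and *Cst7* (2.32) were higher in DTR microglia. Of the disease-associated list 7 were higher and 5 lower. Without DTR array 1 the count of transcripts higher fell from 580 to 340.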

How the data were processed

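RNA of each sorted sample was amplified with the GeneChip WT Pico kit and hybridised to 1 array. The deposited table holds 1 log2 expression value per transcript and array, made by the authors. Partek is named in the submitters' processing notes, while its version, the probe summary, the normalization and the batch adjustment are not given in the sources used here. Groups and batches were read from the sample labels. The table lists 41345 transcripts, of which 2145 were blank and 6955 were 0 on every array. The remaining 32245 were tested: 22761 carried 1 symbol in GEO's platform annotation, 1683 several and 7801 none. Where more than 1 transcript shared a symbol, the brightest on average was kept for that gene.

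Differences were estimated with limma 3.58.1 in R 4.3.3. The 27 arrays of the 9 groups shared 1 model, with group and batch as terms (residual degrees of freedom 17, prior 6.23), so the spread of a group of 2 arrays is taken largely from the other groups. Errors after ± are standard errors of this model. With the batch term, DTR arrays are in effect set against naive arrays 1 and 2, and a fitted difference can depart from that of the group means. The Benjamini-Hochberg adjustment ran over every tested transcript, and calls used the study's thresholds (2-fold, adjusted p of 0.05). The number of arrays limits the precision. Scripts were tested on simulated data.

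The members and lists were chosen with earlier results of these data known. Genes were named if the paper names them for the arrays, if they were among the 15 largest called rises or falls without overlap between groups, or if they were among up to 8 members of a list with the largest differences. Further list members, and *Helz2*, *Rnf213*, *Ddx60*, *Phf11b*, *Trim30b*, *Ifi209*, *Ifi213*, *Ifi214*, *Hcar2*, *Pdcd1*, *Nfkbid*, *Tk1*, *Lmnb1* and *Dna2*, were picked after their values were seen. Some genes stand in several lists, and no member of the erythroid marker list was measured. Alternatives were other sets of arrays, scaling, filters and variance models, each array left out, a replicate block and a Y-linked covariate. One item is not reported here.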

Additional observations from a re-analysis of the deposited data

Results flagged for a closer look

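For 168 named genes and 37 list means, the 5 naive arrays were searched for an array whose gap to its nearest neighbour took up most of the group's range (Dixon's test at the 95% level). Of these 205 sets of values 18 stood out, where chance picks out about 1 in 20, and naive array 3 was the outlying array in 12 of them. The sets share arrays and genes, so they are not independent.

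In naive array 3, genes of the interferon response and antigen presentation were high: *Dhx58* read 8.54 against 7.59 to 7.79, *Irf7* read 8.59 against 7.34 to 7.70, *Irf8* read 10.69 against 9.35 to 9.46, *Irf9* read 9.83 against 9.29 to 9.38, *Stat2* read 9.76 against 9.11 to 9.27 and *Tap2* read 8.41 against 7.55 to 7.73 in the other 4 naive arrays. In the same array *Aurkb* read 7.35 against 5.89 to 6.08, *Itgax* read 8.01 against 7.29 to 7.48 and *Lpl* read 6.48 against 5.20 to 5.44, all higher than in the others. Of the list means in that array, the mean of the homeostatic list read 11.20 against 10.94 to 11.02 and the mean of the cell cycle list read 6.53 against 5.99 to 6.11 in the others, while the mean of the Ly6Chi monocyte markers read 5.14 against 5.44 to 5.51. In naive array 1 *Ctsd* read 12.59 against 12.69 to 12.71 and *Ifih1* read 8.26 against 8.45 to 8.51. In naive array 2 the mean of the TGF-β signalling list read 8.28 against 8.39 to 8.43. In naive array 4 *Mef2a* read 12.63 against 12.51 to 12.54. In naive array 5 *Helz2* read 5.59 against 5.77 to 5.82 and *Myo5a* read 6.81 against 6.46 to 6.54.

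The groups of 2 and 3 arrays were too small for this search. The cause of these departures was not tested.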

How the results depend on the processing

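No called gene named in the report changed sign in any of the alternatives run (101 of 101). Apart from leaving out 1 array in turn, 153 of 176 counts of calls stayed within 1.5 times the reported count and 23 did not. Some of these settings fitted only a subset of the arrays. Why the 23 counts moved was not tested. For DTR against naive microglia, the 204 transcripts higher and 39 lower became 117 and 3 with CNS arrays only and 116 and 6 with the 7 DTR and naive arrays only, where 21 interferon-stimulated genes were called higher. The count lower became 18 without moderation of the variances and 65 with no fold threshold. With the array number as a replicate block in DTR and naive arrays 1 and 2 it became 8. Those numbers did not pair the arrays (r = 0.0784 between their deviations), so the block is a description only, and 28 of the 101 named calls were lost under it. More were lost with CNS arrays only (39) and with DTR and naive arrays only (33), and 20 without moderation. No homeostatic gene was called lower (0) with CNS arrays only, with DTR and naive arrays only or under the block, and 2 without the batch term. For the cell cycle list 1 gene was called higher with arrays of batch 1 only, with the dimmest transcripts removed (mean signal under the 40th percentile), and with 1-symbol transcripts only. Against F4/80low microglia at 12 weeks, the 6 transcripts lower became 1 with CNS arrays only and 2 without moderation. Against those at 4 weeks, 37 higher and 22 lower became 96 and 98 without the batch term, 0 and 0 with CNS arrays only, and 18 and 2 without moderation. The fits of this contrast to arrays of batch 1 only could not be made, since no 4-week array lies in that batch. The alternatives for the 4-week and F4/80hi contrasts, and leaving out arrays of the other group, were added after seeing the data.

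When each array was left out in turn, DTR against naive microglia gave 145 to 209 transcripts higher and 11 to 45 lower. The ranges were 96 to 146 and 2 to 9 against F4/80low microglia at 12 weeks, 17 to 46 and 1 to 121 at 4 weeks, and 340 to 689 and 244 to 354 against F4/80hi macrophages. Calls were 23 to 34 higher for interferon-stimulated genes, 8 to 9 for the disease-associated list, 0 to 3 for cell cycle genes, and 1 higher (1 to 1) with 0 to 1 lower for homeostatic genes. The other counts of these lists stayed at 0 to 0.

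With 2 DTR arrays, the spread of that group is taken from the others. Possible technical repeats make the naive spread too small: with naive arrays 1 and 5, and 2 and 4, averaged and no batch term (a pairing chosen after seeing the data), 6 of the 101 named calls were lost. The Y-linked covariate ended 8. Falls are hard to see in genes whose naive signal is already near background.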
